A study of Homo sapiens with 6 samples.

Results

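The mismatch repair genes examined here are the MutS homologs *MSH6* and *MSH3* and the MutL homologs *PMS2*, *PMS1* and *MLH3*. They were chosen by name, as the rows whose gene symbol is 1 of these 5, and make up 5 of the 47577 loci in the expression table. OVCAR3 cells derive from a high-grade serous ovarian carcinoma (HGSOC), and the compound THZ531 binds covalently to CDK12 and CDK13, kinases that act on transcription. The polyadenylated RNA of 3 cultures given the solvent DMSO and of 3 given THZ531 at 200 nM was sequenced after 6 h, the cultures of a group being biological repeats. The sample titles name THZ531 but the treatment text gives THZ1, a compound of the same series, at an equal dose, and the titles were followed. The cultures of both groups are of 1 cell line, and the question was which transcripts change when both kinases are inhibited. In bulk RNA such as this, fewer cells with a transcript and less of it per cell cannot be told apart.

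Mismatch repair removes bases that were wrongly paired or slipped during DNA replication. MutS proteins work as dimers that find the fault: MSH6, with a common MutS partner, recognizes single mispaired bases and short loops, and MSH3, with the same partner, recognizes larger loops. MutL dimers are then recruited and direct the removal of the new strand. PMS2 carries the nuclease activity of the main MutL dimer, MLH3 forms a dimer known mainly for meiotic crossing-over, and the dimer with PMS1 has no well-defined role in repair.

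Reads counted on genes ranged from 53054048 to 70986130 per library. The 8 epithelial and serous ovarian markers had a normalized read count of at least 10 in every DMSO library, and 4 of 8 markers of other cells did so too, *PTPRC*, *PECAM1*, *VWF* and *COL1A1*, with DMSO means of 33.6, 63.9, 89.0 and 995.5. *CD3E* and *ALB* were listed at 0 throughout, and *VWF* (1.66-fold) and *COL1A1* (2.20-fold) were called up on the deposited scale. The sum over those 8 other markers was 1155 to 1237 in the DMSO libraries and 2276 to 2556 in the THZ531 libraries, most of it *COL1A1*, and its part in the results was not tested. Among the epithelial and serous ovarian markers *PAX8* alone was called, down 9.09-fold from a mean of 11272 to 1241.5 on the deposited scale. The sum over these markers was 436000 to 446700 in the DMSO libraries and 555200 to 567600 in the THZ531 libraries. All values below are normalized read counts, that is, reads on a locus divided by a factor per library that the authors set with DESeq2, and they grow with transcript length. Up- or down-regulated here means a change of 1.5-fold or more with an unadjusted p (limma) no higher than 0.05. Of the 17568 loci that reached a value of 10 in 3 or more libraries, 39.5% were called in either direction, 15.7% up and 23.9% down.

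The MutS gene *MSH6* and the MutL genes changed in opposite directions with THZ531 on the deposited scale. *MSH6* was up-regulated 1.59-fold, and the 3 MutL genes were down-regulated, *PMS2* by 1.58-fold, *PMS1* by 2.42-fold and *MLH3* by 2.67-fold. *MSH3* was 1.21-fold higher, under the fold threshold. Hence 4 of 5 members were called, 1 up and 3 down, beside 39.5% of all loci, 15.7% up and 23.9% down. The 5 log2 fold changes had a median of -0.66, against -0.01 over all 17568 loci. The adjusted p (limma, Benjamini-Hochberg over all loci) was at most 0.05 for 5 of 5 members, as for 68.6% of all loci, and the 3 DMSO libraries did not overlap the 3 THZ531 libraries for 5 of 5 members, as for 71.7% of all loci. Since most loci passed these 2 criteria, the last 2 counts are not a result about the members.

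The call of *MSH6* and the direction of *MSH3* depended on how the libraries were scaled. The deposited factors left the summed values higher in THZ531, and scaling the libraries to the same total moved the median of all loci by -0.24 on the log2 scale, while scaling to the ribosomal protein gene *RPL34* moved it by -0.49. *MSH6* stayed higher in THZ531 at a log2 fold change of 0.42 and 0.17, in that order, but was no longer called, and *MSH3* came to 0.03 (adjusted p = 0.691, limma) and to -0.22. The 3 MutL genes were called down-regulated under each of these scalings, at -1.15 or lower with *RPL34*.

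**Figure D1:**
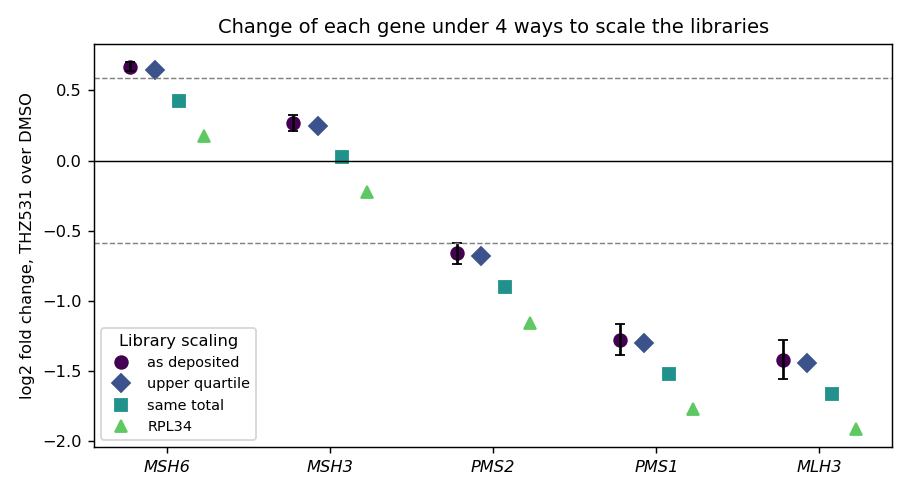
Log2 fold change of THZ531 over DMSO for each mismatch repair gene under the deposited scaling (bars: SE, limma, 3 libraries per group), the upper quartile, the same total and *RPL34*; dashed lines mark a fold change of 1.5. *MSH6* moves from 0.67 to 0.17 and *MSH3* from 0.27 to -0.22, while *PMS2*, *PMS1* and *MLH3* lie under the lower line in all 4.

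The promoters of the 5 genes differ in base composition and 3 of them are shown, namely the most GC-rich (*MSH6*), that between *PMS2* and the neighbouring gene *AIMP2* and that without the motifs searched (*MLH3*). Sequences are those of RefSeq on GRCh38.p14, on the strand of the gene and 5′ to 3′, and end at or before the first annotated exon. Capitals mark the GC box GGGCGG, the CCAAT box CCAAT and the cAMP response element TGACGTCA, each searched on both strands, so that a GC box may read as its complement. The *MSH6* stretch is chr2:47782895-47783078 (plus strand, 184 bases), the *PMS2* stretch is chr7:6009131-6009244 (minus strand, 114 bases, between *PMS2* and *AIMP2*), and the *MLH3* stretch is chr14:75051533-75051717 (minus strand, 185 bases).
MSH6: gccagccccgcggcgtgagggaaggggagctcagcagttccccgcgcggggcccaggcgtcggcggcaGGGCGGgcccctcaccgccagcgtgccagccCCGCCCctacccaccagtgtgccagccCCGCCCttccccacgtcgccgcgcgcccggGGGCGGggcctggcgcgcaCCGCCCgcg
PMS2: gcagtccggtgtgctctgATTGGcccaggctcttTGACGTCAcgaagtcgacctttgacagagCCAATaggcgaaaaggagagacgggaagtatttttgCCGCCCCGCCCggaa
MLH3: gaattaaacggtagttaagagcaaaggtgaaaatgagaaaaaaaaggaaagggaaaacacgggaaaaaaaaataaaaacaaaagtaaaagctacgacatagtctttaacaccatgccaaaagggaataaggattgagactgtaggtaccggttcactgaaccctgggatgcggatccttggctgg

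In the windows from 250 bases before to 50 bases after the start, GC content was 78% for *MSH6*, 72% for *PMS1*, 71% for *MSH3*, 61.7% for *PMS2* and 51% for *MLH3*, against a median of 58.3% over all 27305 RefSeq windows. The GC box occurred 5 times for *MSH6*, 4 times for *MSH3*, 2 times for *PMS2*, 1 time for *PMS1* and 0 times for *MLH3*, and 44.6% of all windows hold it. The CCAAT box occurred 3 times for *PMS2*, 2 times for *PMS1* and 1 time for *MSH6*, with 35.7% of all windows holding it. The cAMP response element was found for *PMS2* alone, 1 time, and 1.98% of all windows hold it. Each window reaches 50 bases past the start and so lies partly in annotated exons, and no stretch of *MSH3* or *PMS1* is printed.

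*MSH6* (GSHG0023798, chr2:47783079-47806953, plus strand, hg38) was by far the most abundant member. Its values were 12359, 12323 and 12128 in DMSO and 19534, 19519 and 19413 in THZ531, here and hereafter in the order of replicates 1 to 3. The libraries of a group lay close together and every THZ531 library was well above every DMSO library. The mean rose from 12270 ± 124 to 19489 ± 66.0 (SD, n = 3 each), a log2 fold change of 0.67 ± 0.03 (SE; adjusted p = 4.52e-11, limma), higher than that of 85.6% of all loci tested.

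*MSH3* (GSHG0034464, chr5:80654648-80876815, plus strand), the longest of the loci at 222168 bases, had values of 1468, 1458 and 1478 in DMSO and 1802, 1698 and 1808 in THZ531. The groups did not overlap, and THZ531 replicate 2 was the lowest of its group. The means were 1468 ± 9.98 and 1769 ± 61.7, a log2 fold change of 0.27 ± 0.05 (SE; adjusted p = 0.000398, limma) that turned to -0.22 with *RPL34* scaling.

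*PMS2* (GSHG0040238, chr7:5970921-6009106, minus strand) had values of 1259, 1284 and 1152 in DMSO and 772, 729 and 836 in THZ531. All THZ531 libraries were below all DMSO libraries, replicate 3 being the lowest DMSO and the highest THZ531 library. The mean fell from 1232 ± 70.1 to 779.0 ± 54.1, a log2 fold change of -0.66 ± 0.07 (SE; adjusted p = 8.01e-07, limma). Of the 3 MutL genes, *PMS2* had the log2 fold change nearest to 0.

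*PMS1* (GSHG0024647, chr2:189783536-189877629, plus strand) had values of 1102, 1221 and 1186 in DMSO and 598, 427 and 438 in THZ531. The groups stood clearly apart, although THZ531 replicate 1 kept a higher level than the other two. The mean fell from 1170 ± 61.3 to 488 ± 95.7, a log2 fold change of -1.28 ± 0.11 (SE; adjusted p = 3.3e-08, limma), and without that library it was -1.43.

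*MLH3* (GSHG0013034, chr14:75004984-75051467, minus strand), the least abundant member, had values of 337, 386 and 320 in DMSO and 136, 123 and 129 in THZ531. These rest on 401 to 424 reads per DMSO library and 108 to 113 reads per THZ531 library, the thinnest counts of the 5 genes. No THZ531 library came near the DMSO range. The mean fell from 347.5 ± 34.4 to 129 ± 6.65, a log2 fold change of -1.42 ± 0.14 (SE; adjusted p = 1.41e-07, limma), lower than in all but 9.22% of the loci tested.

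**Figure D2:**
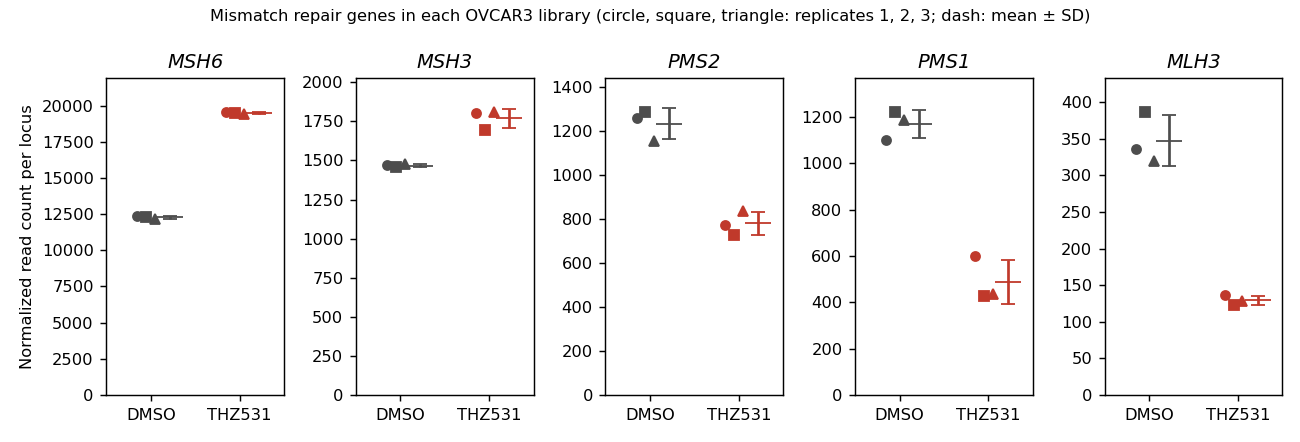
Normalized read count (y axis, from 0, own scale per gene) of each mismatch repair gene in the 3 DMSO and 3 THZ531 libraries, with the mean ± SD beside the points. The groups are apart for each gene, as for 71.7% of all loci. *MSH6* lies at 12128 to 12359 in DMSO and 19413 to 19534 in THZ531, and *MLH3* at 320 to 386 and 123 to 136.

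To compare levels between genes, each value was divided by the length of the gene's MANE transcript in kb. On this scale of normalized reads per kb, the order in DMSO was *MSH6* (2877 ± 29.2), *PMS1* (371 ± 19.4), *MSH3* (330.4 ± 2.25), *PMS2* (242 ± 13.8) and *MLH3* (44.4 ± 4.39; SD, n = 3 each), and no neighbours overlapped. In THZ531 the order was *MSH6* (4570.0 ± 15.5), *MSH3* (398 ± 13.9), *PMS1* (155 ± 30.3), *PMS2* (153 ± 10.6) and *MLH3* (16.5 ± 0.85). *PMS1* and *PMS2* then could not be ordered, since their ranges of 135 to 189.6 and 143 to 164 overlapped, while *MSH3* had passed *PMS1*. Per kb, *PMS1* made up 56.4 ± 1.94% of the summed MutL signal in DMSO and 47.4 ± 4.87% in THZ531, and *PMS2* 36.8 ± 1.75% and 47.4 ± 4.68%. The ratio of the 2 MutS genes to the 3 MutL genes, each summed per kb, was 5.05, 4.67 and 4.94 in the DMSO libraries and 13.9, 16.9 and 15.5 in the THZ531 libraries. *MSH6* made up 89.7 ± 0.15% of the MutS sum in DMSO and 92.0 ± 0.27% in THZ531, so that the MutS side of this ratio is mostly *MSH6*. The common MutS and MutL partners are not part of these sums.

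Ratios between members within a library do not depend on scaling. For 9 of the 10 pairs the 3 DMSO ratios did not overlap the 3 THZ531 ratios. Of all single loci, 71.7% had groups without overlap, and the share over other pairs of genes was not computed. The 10 pairs also share genes and are not independent, so this count is not a result about the members. With 3 libraries against 3 an exact two-sided permutation test cannot give a p under 0.1, and these 9 pairs reached that value (0.111 after adjustment over the 10 pairs). *MSH6* over *MSH3* was 8.42, 8.45 and 8.21 in DMSO and 10.8, 11.5 and 10.7 in THZ531, a 1.32-fold higher ratio (log2 change 0.40 ± 0.03, SE). The ratio of *MSH6* to *PMS2* was 2.51-fold higher in THZ531, that to *PMS1* 3.85-fold and that to *MLH3* 4.27-fold. *MSH3* over *PMS2*, from 1.17, 1.14 and 1.28 to 2.33, 2.33 and 2.16, was 1.91-fold higher. Within the MutL family, *PMS2* over *PMS1* was 1.53-fold higher (log2 change 0.62 ± 0.18, SE) and *PMS2* over *MLH3* 1.70-fold. *PMS1* over *MLH3* was the pair that overlapped, at 3.27, 3.16 and 3.71 in DMSO and 4.40, 3.48 and 3.41 in THZ531 (log2 change 0.15 ± 0.14, SE; exact permutation p = 0.4), and leaving out 1 library at a time gave 0.03 to 0.22.

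**Figure D3:**
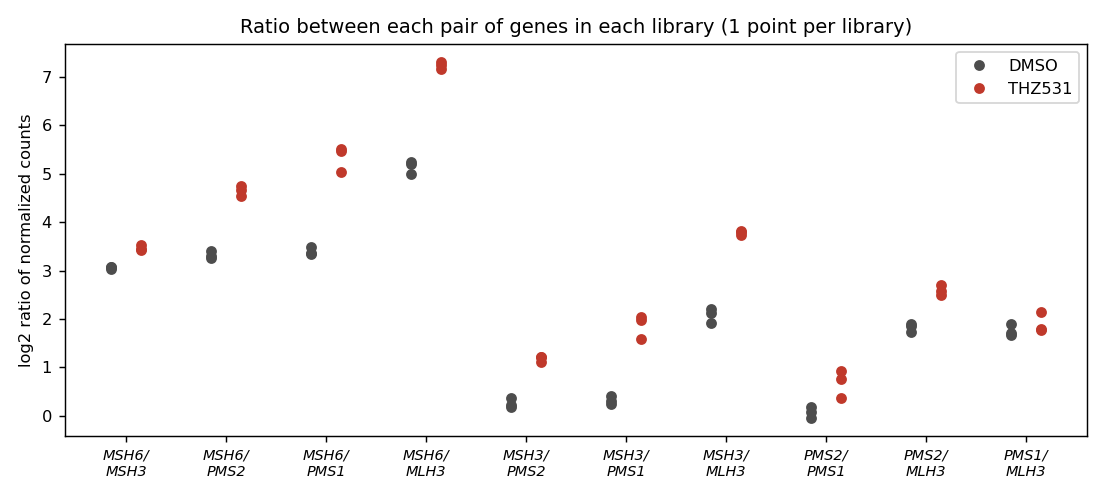
Log2 ratio of the normalized read counts of each pair of mismatch repair genes, with 1 point for each of the 3 DMSO and 3 THZ531 libraries. THZ531 points lie above DMSO points in 9 of 10 pairs, and *PMS1* over *MLH3* is the pair where they overlap. The pairs share genes, and the share over other pairs of genes was not computed.

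For *PMS2*, *PMS1*, *MSH6* and *MLH3*, the values of genes that the annotation places beside or across the member were examined. *PMS2* starts 223 bases from *AIMP2*, which encodes a scaffold protein of the aminoacyl-tRNA synthetase complex. *AIMP2* had 2273, 2191 and 2244 in DMSO and 1515, 1573 and 1523 in THZ531, a log2 fold change of -0.54 ± 0.05 (SE; adjusted p = 1.24e-07, limma) that did not reach the fold threshold. All its THZ531 libraries were below its DMSO libraries, as for *PMS2*. The ratio of *PMS2* to *AIMP2* overlapped between the groups, with a log2 change of -0.12 (exact permutation p = 0.2, 0.3 after adjustment over 2 such pairs, which were chosen after their values were seen) and -0.18 to -0.06 when 1 library was left out.

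*PMS1* starts 111 bases from *ORMDL1*, a regulator of sphingolipid synthesis, and the loci overlap by 804 bases. *ORMDL1*, a widely expressed gene, was listed at 0 in all 6 libraries, so that no pair could be compared. Whether its reads were counted on another locus, *PMS1* included, was not tested, and its absence from the cells cannot be read from this value. The 3′ end of *MSH6* overlaps by 34 bases that of *FBXO11*, which encodes a subunit of a ubiquitin ligase and lies on the opposite strand. *FBXO11* had 1893, 1663 and 1766 in DMSO and 3089, 2967 and 2908 in THZ531 and was up-regulated 1.69-fold (adjusted p = 6.47e-09, limma) on the deposited scale. The ratio of *MSH6* to *FBXO11* overlapped between groups (log2 change -0.09, exact permutation p = 0.3).

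*EIF2B2*, a translation initiation factor gene on the opposite strand, overlaps the *MLH3* locus by 7383 bases. Its log2 fold change was -0.08 ± 0.05 (SE; adjusted p = 0.156, limma), with means of 3307 ± 110 in DMSO and 3132 ± 118 in THZ531. Whether reads were counted by strand is not given in the sources used here, and for overlapping loci on both strands this limits what can be assigned to *MLH3* and, near its start, to *PMS1*. A locus without a symbol of 1583 bases (chr14:75011269-75012851) lies inside the *MLH3* locus and partly across *EIF2B2*. It had 12, 7 and 19 reads in the DMSO libraries and 0 in each THZ531 library, too few to be tested. Neither this locus nor *EIF2B2* overlaps the MANE transcript of *MLH3* (chr14:75013775-75051467). How many *MLH3* reads fell outside that transcript was not tested, and the value of *MLH3* per kb includes any such reads.

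*PMS2* shares sequence with other genes, which makes its value less certain. Of 4944 windows of 150 bases in its MANE transcript, 916 (18.5%) also occur in transcripts of other genes. An annotated gene without a symbol shares 916 windows and the copy *PMS2CL* shares 267. For the other 4 members, 0 windows occur in another gene. The 8 copies listed had DMSO means from 14.9 to 587, below the 1232 of *PMS2*. *PMS2CL* is the only one of them named among the genes that share windows. Of the 8, 2 were called, beside 39.5% of all loci. *PMS2P3* was up (log2 fold change 0.75, adjusted p = 0.000389, limma) and *PMS2P9* down (-1.40, adjusted p = 0.00467, limma). *PMS2CL* had a mean of 48.1 ± 14.7 in DMSO and 33.7 ± 0.79 in THZ531 (adjusted p = 0.224, limma). Reads of *PMS2* that matched a copy could have been left out or counted elsewhere, and their part was not tested.

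The loci differ widely in length. *MSH6* spans 23875 bases, *PMS2* 38186, *MLH3* 46484, *PMS1* 94094 and *MSH3* 222168. Among all tested loci with a symbol of 10 to 50 kb, which include *MSH6*, *PMS2* and *MLH3*, 35.9% were called and the median log2 fold change was -0.05. For loci of 50 to 100 kb, as *PMS1*, 39.6% were called with a median of -0.02, and for loci over 200 kb, as *MSH3*, 35.8% with a median of -0.10. AATAAA, the usual polyadenylation signal, was searched on the transcribed strand of the introns, since transcripts that end early in introns are a known effect of CDK12 inhibition. It occurred 9.72 times per 10 kb of intron in *MSH6*, 10.4 in *MSH3*, 9.99 in *PMS2*, 9.44 in *PMS1* and 10.7 in *MLH3*. Over 14592 loci the median per 10 kb of locus was 7.28, against 8.82 to 10.4 for the 5 members, at percentiles 63.3 to 77.5 of these loci. The first such site was 683 bases into intron 1 of *PMS1*, 782 bases into intron 1 of *PMS2* and 1682 bases into intron 1 of *MSH6*, and in intron 2 of *MSH3* and *MLH3*. Whether transcripts of the members ended early in introns was not tested.

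The other genes of the reaction were followed through a list of 21, of which 20 passed the minimum value and 1, the meiotic *MSH4*, had at most 5 reads in a library. Of these 20, 10 were called (5 up, 5 down), beside 39.5% of all loci (15.7% up, 23.9% down). An adjusted p of at most 0.05 (limma) was found for 17, beside 68.6% of all loci, and groups without overlap for 17, beside 71.7%. Their median log2 fold change was 0.12, against -0.01 for all loci. The sliding clamp *PCNA*, which holds the polymerase on DNA, had a mean of 6136 ± 103 in DMSO and 11120 ± 300.1 in THZ531 and rose 1.81-fold. The large subunit of its loader, *RFC1*, rose 1.56-fold and *RFC3* 1.84-fold, while *RFC4* fell 1.90-fold from 1806 ± 71.4 to 953 ± 63.8. *RFC2* and *RFC5* were not called.

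Of the single-strand binding genes, *RPA2* fell 1.82-fold while *RPA1* and *RPA3* were not called. Of the resynthesis genes of polymerase delta, *POLD3* fell 1.69-fold, and *POLD1*, *POLD2* and *POLD4* were not called. *EXO1*, the exonuclease that removes the faulty strand, had a log2 fold change of -0.32 and *LIG1*, the ligase, of 0.32, both under the fold threshold. *MSH5*, a MutS homolog of meiosis, fell 2.38-fold, from 332 ± 29.6 to 139 ± 9.64. Of the accessory genes, the nuclease gene *FAN1* fell 1.62-fold, *MCM9*, a helicase gene, rose 1.52-fold, and *SETD2*, which places the histone mark bound by MSH6, rose 1.54-fold. *MCM9* lost its call without DMSO replicate 2 (log2 fold change 0.56) or without THZ531 replicate 1 (0.53). With libraries scaled to the same total, 2 of the 5 risen genes, *PCNA* and *RFC3*, were still called, and with *RPL34* 0 were, whereas the 5 that fell were called each time, with *EXO1* and *RFC5* added by *RPL34*.

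**Figure D4:**
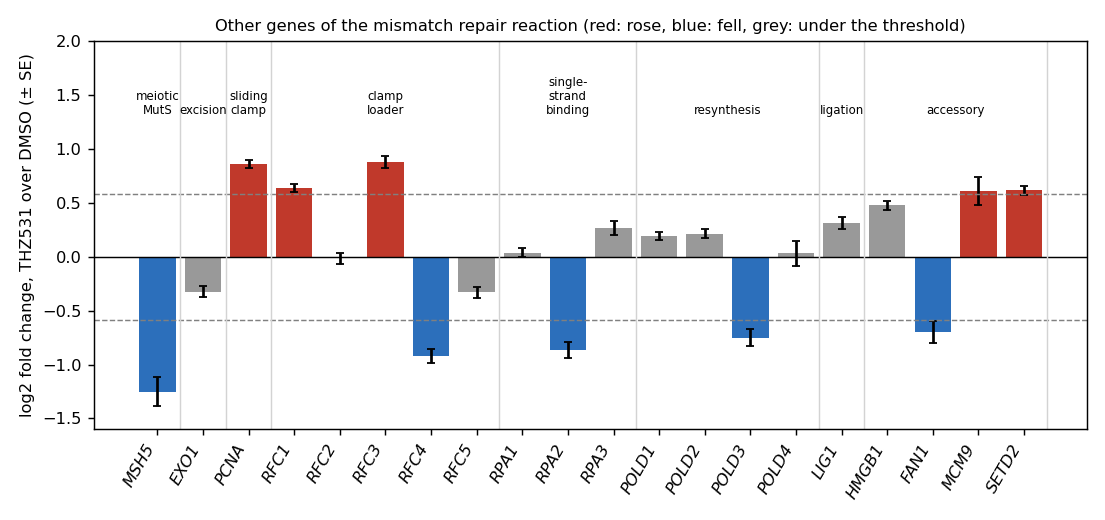
Log2 fold change of THZ531 over DMSO with SE (limma, 3 libraries per group) for 20 other genes of mismatch repair, grouped by role, on the deposited scale; dashed lines mark a fold change of 1.5. Red bars mark 5 called up, of which 2 hold when libraries are scaled to the same total and 0 when scaled to *RPL34*, and blue bars 5 called down, which hold in both.

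The loci whose profile over the 6 libraries lay nearest to each member were found by Euclidean distance on centred log2(value + 1) values, among 11686 loci with a symbol and a mean of at least 100. Nearest to *MSH6* were *TPTEP2* (distance 0.019) and *ANKRD17* (0.022). Nearest to *MSH3* were *ACBD5* (0.035) and *C1GALT1C1* (0.041). Nearest to *PMS2* were *CCNF* (0.041) and *SLC27A4* (0.068). Nearest to *PMS1* were *SAYSD1* (0.144) and *NBR2* (0.146), and to *MLH3* *NR1H3* (0.133) and *SH3BP5-AS1* (0.153). With 6 libraries in 2 groups such a distance is dominated by the group difference and is a description.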

How the data were processed

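OVCAR3 libraries (TruSeq Stranded mRNA, DMSO and THZ531, 3 each) were analysed from a single table. The authors mapped reads to hg38 with STAR (2.7.5a in the submitters' processing notes), counted them with featureCounts on FAST DB loci and deposited a signal, namely counts divided by a DESeq2 size factor per library. In each library 100% of values were whole multiples of 1 step (tolerance 0.01), so that reads were recovered. Values were tested as log2(value + 1) with limma 3.58.1 (trended variance, R 4.3.3) without covariates, over loci reaching a value of 10 in 3 or more libraries, and p-values were adjusted with Benjamini-Hochberg. On this scale the change of low genes is understated. On recovered reads, edgeR 4.0.16 (quasi-likelihood) called 6863 and DESeq2 1.42.0 called 6788 of 17568 loci, against 6948 by limma. Scripts were tested on simulated data. Exact permutation tests used scipy 1.17.1. Nothing beyond the phrase biological repeats says how cultures were separated, and p-values measure the spread between these libraries. Named genes are the 5 members, the listed repair genes, adjoining or overlapping loci (1 is not reported here), PMS2 copies and the 2 nearest profiles per member. Members and lists were chosen with earlier results of these data known. Alternatives were pseudocounts of 0.1 and 10, no minimum and a minimum of 50, 3 other scalings, a replicate block, the adjusted p, with and without a fold threshold, a 2-fold threshold, both count tools, limma with no variance trend, named loci alone, and the omission of each library in turn.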

Additional observations from a re-analysis of the deposited data

How the results depend on the processing

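Scaling changed the results for the MutS genes. With libraries scaled to the same total, the *MSH6* change was 0.42 on the log2 scale (adjusted p = 1.51e-08, limma) and 0 members were called up, and with *RPL34* it was 0.17 (adjusted p = 0.059) with 0 called up. *MSH3* turned to -0.22 with *RPL34* (adjusted p = 0.041). The adjusted p of *MSH3* ranged up to 0.691 over its 18 alternatives and that of *MSH6* up to 0.059; why the scalings differ was not tested. The split of all calls was 2751 up and 4197 down as deposited, 1647 and 5615 at the same total, 2617 and 4305 by the upper quartile and 1078 and 7524 with *RPL34*. *PMS2*, *PMS1* and *MLH3* stayed called and lower in THZ531 under each of their 18 alternatives, at -1.15 to -0.61, -1.77 to -1.19 and -1.91 to -1.34.

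A fold change of 2 called 2 members, *PMS1* and *MLH3*, 0 of them up, so that *PMS2* and *MSH6* lost their calls. That threshold called 1 of 20 other repair genes and 4042 of the 17568 loci tested, 1353 up and 2689 down. The adjusted p alone, at any fold, called 12059 loci (68.6%), 17 other repair genes and 5 members, 2 of them higher and 3 lower in THZ531. Leaving out 1 library at a time gave 0.25 to 0.30 for *MSH3*, 0.66 to 0.67 for *MSH6*, -0.71 to -0.61 for *PMS2*, -1.43 to -1.19 for *PMS1* and -1.48 to -1.34 for *MLH3*. With the replicate number as a block, 6918 loci were called, and 4 members and 10 other repair genes as without it. Samples of the same number did not deviate together (r = 0.002, 0.019 and -0.039 for replicates 1, 2 and 3), so the numbers were not taken as pairs, and the replicate block changed no call of a member. *MLH3* rests on the fewest reads, 108 to 113 per THZ531 library.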
